A study of Homo sapiens with 6 samples.

Results

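To examine the protein-folding genes of HepG2 cells with and without APPLE overexpression, 10 heat shock genes were followed through 6 RNA-Seq libraries. They were chosen by symbol, as HSPA1A, HSPA1B, HSPA8, HSPH1, DNAJB1, HSP90AA1, HSP90AB1, HSPB1, HSPD1 and HSPE1, and each was matched to the table by the stable part of its Ensembl identifier. All 10 were found among the 20422 genes of the table, and all 10 were among the 12386 genes that passed a filter on low counts. HepG2 is an established human liver cancer line, which the study describes as hepatocellular carcinoma. The NC group (3 libraries) carried the empty vector as negative control, and the ORF-Flag group (3 libraries) carried the APPLE reading frame fused to a Flag tag, APPLE being a microprotein encoded by a long non-coding RNA. By the name the study gives it, the construct also holds the untranslated region ahead of this reading frame. The start-codon mutant of the study is not among these libraries, so effects of the RNA and of the microprotein cannot be told apart here. According to the methods of the study, stable lines were made by lentiviral infection and selected with puromycin, whereas the sample labels speak of plasmid transfection of both groups. Whether the 3 libraries of each group come from independently grown cells is stated by neither source, so the p-values measure only the spread between these samples, which may be technical. The libraries held 20081203, 24907524 and 30088457 counts for NC replicates 1 to 3, and 26866148, 17494668 and 27015836 counts for ORF-Flag replicates 1 to 3. Levels are given as CPM, the counts of a gene per 1000000 counts of its library, with library sizes adjusted by TMM factors.

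Heat shock proteins are molecular chaperones that bind unfolded or partly folded proteins. In the cytosol, J-domain proteins hand substrates to HSP70, which binds and releases them in cycles of ATP hydrolysis and nucleotide exchange, and HSP90 takes over many signaling kinases and hormone receptors for their last folding steps. In the mitochondrial matrix, the chaperonin HSP60 and its lid HSP10 enclose imported proteins while they fold. Many of these genes are induced by the transcription factor HSF1 under proteotoxic stress, and several are also abundant in unstressed liver cells and in liver cancer lines.

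HSPE1, HSPA1A and HSPA1B were lower in ORF-Flag than in NC cells, and the other 7 genes did not pass the test. These 3 of 10 genes had an adjusted p below 0.05 in edgeR's quasi-likelihood test, where 4.45% of all genes tested were called in either direction (551 of 12386) and 1.98% were called lower (245 of 12386). The 3 falls were of 19.1%, 16.2% and 13.1%, so each was a modest change. The 3 ORF-Flag libraries all lay below the 3 NC libraries for 4 of the 10 genes (HSPA1B, HSP90AB1, HSPD1 and HSPE1), against 10.9% of all genes tested (1351 of 12386). The median log2 fold change (ORF-Flag over NC) was -0.040 over the 10 genes and -0.0012 over all genes tested. The median of the 10 genes was -0.068 without NC replicate 1, and between -0.057 and -0.031 with any other library left out. Of the 10 log2 fold changes, 9 were below 0, and this number was 6 without NC replicate 2, 8 without ORF-Flag replicate 1 and 8 without ORF-Flag replicate 3. The number of genes called in the whole table depended on single libraries: 551 genes became 267 without NC replicate 2, 1058 without NC replicate 3, 300 without ORF-Flag replicate 1, 278 without ORF-Flag replicate 2 and 199 without ORF-Flag replicate 3. Without NC replicate 1, 3.66% of the genes tested in that fit were called (459 of 12531). Of the 10 heat shock genes, 2 were called without NC replicate 2 and without ORF-Flag replicate 3, 4 without NC replicate 1, and 3 in the other fits with a library left out.

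**Figure D1:**
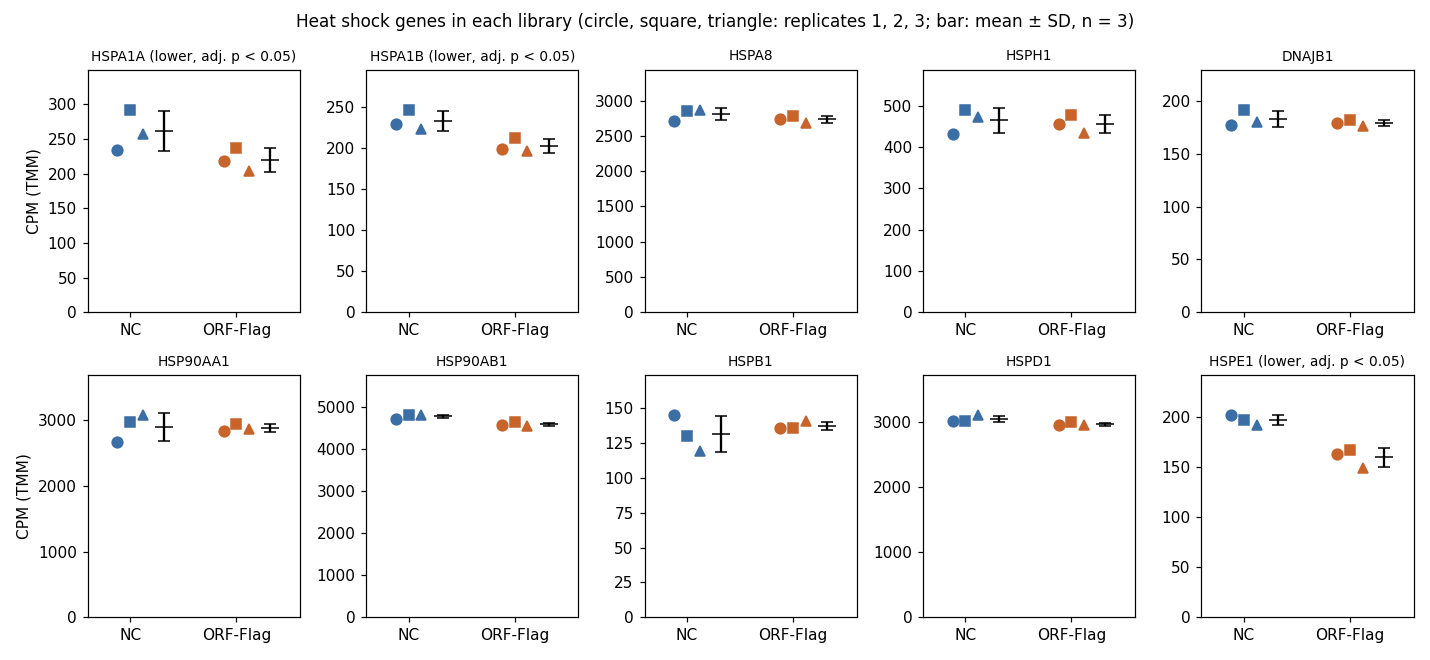
TMM-normalized CPM of each heat shock gene in the 3 NC libraries (blue) and the 3 ORF-Flag libraries (orange), with a separate axis from 0 for each gene and the mean ± SD (n = 3) beside the points. The ORF-Flag points of HSPE1 (149 to 167 CPM) lie below its NC points (193 to 202 CPM), while most other genes overlap.

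**Figure D2:**
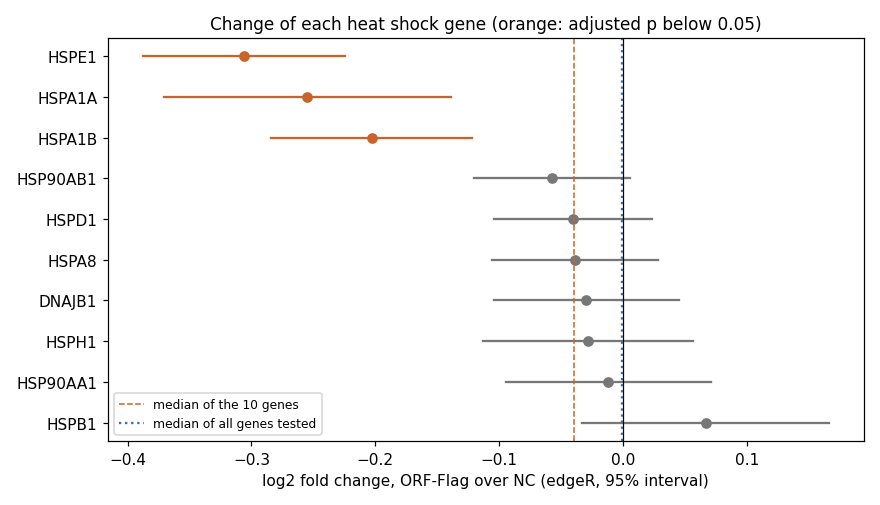
Log2 fold change (ORF-Flag over NC) of each heat shock gene with its 95% interval from edgeR, ordered by size, with the median of the 10 genes (dashed, -0.040) and of all genes tested (dotted, -0.0012). The intervals of HSPE1, HSPA1A and HSPA1B (orange) lie wholly below 0, and the other 7 intervals include 0.

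The inducible HSP70 proteins are encoded by HSPA1A and HSPA1B, a pair of neighbouring genes without introns on chromosome 6. In GENCODE v29 on GRCh38, HSPA1A (ENSG00000204389) lies at chr6:31815464-31817946 and HSPA1B (ENSG00000204388) at chr6:31827735-31830255, both on the plus strand. Their promoter windows are shown because both genes were lower in ORF-Flag cells. The windows come from RefSeq on GRCh38.p14, run from 250 bases before to 50 bases from the start of the gene, and lie at chr6:31815293-31815592 (plus strand) and chr6:31827488-31827787 (plus strand). Capitals mark a heat shock element of 2 inverted units, searched as GAANNTTC and TTCNNGAA, each of which reads the same on both strands.
HSPA1A: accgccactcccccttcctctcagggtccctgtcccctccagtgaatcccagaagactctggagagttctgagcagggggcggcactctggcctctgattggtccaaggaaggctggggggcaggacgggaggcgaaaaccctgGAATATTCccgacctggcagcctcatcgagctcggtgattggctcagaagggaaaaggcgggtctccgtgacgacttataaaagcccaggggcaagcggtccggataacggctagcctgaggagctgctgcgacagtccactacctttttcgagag
HSPA1B: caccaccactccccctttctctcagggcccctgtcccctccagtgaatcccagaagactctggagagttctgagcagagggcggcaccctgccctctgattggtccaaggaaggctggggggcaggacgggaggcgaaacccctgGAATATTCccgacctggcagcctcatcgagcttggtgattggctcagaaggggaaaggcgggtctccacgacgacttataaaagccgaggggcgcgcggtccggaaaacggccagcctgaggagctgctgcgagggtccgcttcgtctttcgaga
The windows were identical at 277 of 301 aligned columns (92.0%), and each held 1 GAANNTTC element, at the same sequence in both. GAANNTTC was present in 6.77% of all 35116 promoter windows, and either motif in 13.5%. A match of these letters is a description and not a measured binding site.

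HSPA1A stood at 234, 292 and 258 CPM in NC replicates 1 to 3 and at 218, 237 and 203 CPM in ORF-Flag replicates 1 to 3. The groups overlapped, because NC replicate 1 lay below ORF-Flag replicate 2. From a mean of 261 ± 29.1 CPM (SD, n = 3), HSPA1A fell to 219 ± 17.1 CPM (SD, n = 3). Its log2 fold change was -0.25 (SE 0.056, edgeR adjusted p = 0.00885). This call rested on single libraries: it was lost without NC replicate 2 (log2 fold change -0.17, adjusted p = 0.0953) and without ORF-Flag replicate 3 (-0.20, adjusted p = 0.0988). It was also lost with DESeq2 (-0.25, adjusted p = 0.218), and the adjusted p ranged from 3.43e-10 to 0.218 over all alternatives. In bulk RNA, fewer cells that express a gene and less of its RNA per cell cannot be told apart.

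HSPA1B stood at 229, 246 and 223 CPM in the NC libraries and at 199, 212 and 197 CPM in the ORF-Flag libraries. Every ORF-Flag library was below every NC library, and replicate 2 was the highest of its group on both sides. Group means were 233 ± 11.9 CPM (SD, n = 3) for NC and 203 ± 8.43 CPM (SD, n = 3) for ORF-Flag, and the log2 fold change was -0.20 (SE 0.039, 95% interval -0.28 to -0.12, edgeR adjusted p = 0.00298). HSPA1B was called under every alternative, with log2 fold changes between -0.24 and -0.16. The call came close to the threshold without NC replicate 2 (edgeR adjusted p = 0.0423) and without ORF-Flag replicate 3 (0.0426). These are the libraries without which HSPA1A lost its call.

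Short reads can separate this pair only in part. Of all stretches of 100 bases in the HSPA1A transcript, 69.9% were also found in HSPA1B, and 68.8% of those of HSPA1B were found in HSPA1A. How reads with several matches were counted is not given in the sources used here, so the split between both genes is uncertain and their levels may be understated. The ratio of HSPA1A to HSPA1B was 1.02, 1.18 and 1.15 in NC replicates 1 to 3 and 1.10, 1.12 and 1.03 in ORF-Flag replicates 1 to 3. The ORF-Flag ratios lay within the wider NC range (SD 0.0442 against 0.0871, n = 3 each). With the counts of both genes summed before the fit, the log2 fold change was -0.23 (edgeR adjusted p = 0.00418).

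HSPA8, the constitutive HSP70 that also drives clathrin uncoating and chaperone-mediated autophagy, was at 2709, 2848 and 2865 CPM in the NC libraries and at 2741, 2779 and 2679 CPM in the ORF-Flag libraries. The groups overlapped, with ORF-Flag replicate 3 the lowest of all 6. The log2 fold change was -0.039 (95% interval -0.11 to 0.028, edgeR adjusted p = 0.584). With a library left out it ranged from -0.064 (without NC replicate 1) to -0.024 (without NC replicate 3). The ratio of HSPA1B to HSPA8 within a library was 0.0845, 0.0865 and 0.0780 in the NC group and 0.0725, 0.0764 and 0.0734 in the ORF-Flag group. The ORF-Flag ratios were all below the NC ratios, and this difference was not tested. The HSPA8 window at chr11:123062087-123062386 (minus strand, GRCh38.p14) held 2 GAANNTTC and 2 TTCNNGAA matches, which overlap in pairs. They make 2 elements of 3 units (either motif extended by another unit after 2 bases). Each window of the inducible pair held 1 element of 2 units.

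Neither cofactor of the HSP70 cycle among the 10 genes passed the test. HSPH1, the HSP110 protein that exchanges nucleotide on HSP70, was at 431, 490 and 474 CPM in the NC libraries and at 456, 478 and 436 CPM in the ORF-Flag libraries. NC replicate 1 was the lowest of the 6 and NC replicate 2 the highest, so the ORF-Flag values lay within the NC range. The log2 fold change of HSPH1 was -0.029 (95% interval -0.11 to 0.056, edgeR adjusted p = 0.779). DNAJB1, the J-domain protein that stimulates the HSP70 ATPase, was at 177, 192 and 181 CPM in the NC libraries and at 180, 182 and 176 CPM in the ORF-Flag libraries. Here too the groups overlapped, with a log2 fold change of -0.030 (95% interval -0.10 to 0.045, edgeR adjusted p = 0.731). The log2 fold change turned above 0 in some fits with a library left out, reaching 0.010 for HSPH1 and 0.0032 for DNAJB1.

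The HSP90 genes encode the stress-inducible isoform (HSP90AA1) and the constitutive isoform (HSP90AB1). HSP90AA1 was at 2666, 2973 and 3076 CPM in the NC libraries and at 2832, 2951 and 2862 CPM in the ORF-Flag libraries. The NC libraries spread over a wider range than the ORF-Flag libraries and enclosed them (SD 214 against 61.7 CPM, n = 3 each). The log2 fold change was -0.012 (95% interval -0.095 to 0.071, edgeR adjusted p = 0.917), and its sign varied with the library left out, from -0.070 to 0.031. HSP90AB1 was at 4721, 4799 and 4796 CPM in the NC libraries and at 4571, 4631 and 4554 CPM in the ORF-Flag libraries. The groups did not overlap, but the difference was small: the log2 fold change was -0.058 (95% interval -0.12 to 0.0054) and the edgeR adjusted p was 0.322. The ratio of HSP90AA1 to HSP90AB1 was 0.565, 0.620 and 0.641 in the NC group and 0.620, 0.637 and 0.628 in the ORF-Flag group, with overlap.

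HSPB1 (HSP27), a small heat shock protein that holds unfolding proteins without ATP, was the single gene of the 10 with a log2 fold change above 0. It was at 145, 130 and 119 CPM in the NC libraries and at 135, 135 and 140 CPM in the ORF-Flag libraries. The ORF-Flag libraries lay close together, inside the wider NC range. The log2 fold change was 0.066 (95% interval -0.033 to 0.17, edgeR adjusted p = 0.510). Leaving out NC replicate 1, the highest of the 6, put HSPB1 past the threshold (0.14, adjusted p = 0.0392), and with other libraries left out the log2 fold change went down to -0.0014.

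The mitochondrial chaperonin is encoded by HSPD1 (HSP60) and its lid by HSPE1 (HSP10), which lie head to head on chromosome 2. In GENCODE v29, HSPD1 (ENSG00000144381) spans chr2:197486581-197516737 on the minus strand and HSPE1 (ENSG00000115541) spans chr2:197499994-197503457 on the plus strand. Their RefSeq windows on GRCh38.p14 are shown because these neighbours differed in whether they passed the test. The HSPE1 window lies at chr2:197500129-197500428 (plus strand). Of the HSPD1 windows, the one at chr2:197499791-197500090 (minus strand) is printed, with heat shock elements in capitals, and another at chr2:197500225-197500524 shares 204 bases with the HSPE1 window.
HSPE1: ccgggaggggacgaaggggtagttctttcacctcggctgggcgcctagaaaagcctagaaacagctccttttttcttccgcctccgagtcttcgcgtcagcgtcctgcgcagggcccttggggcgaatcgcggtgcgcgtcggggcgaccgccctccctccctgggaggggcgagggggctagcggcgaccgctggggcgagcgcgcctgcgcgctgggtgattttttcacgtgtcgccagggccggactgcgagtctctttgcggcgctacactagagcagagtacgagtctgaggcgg
HSPD1: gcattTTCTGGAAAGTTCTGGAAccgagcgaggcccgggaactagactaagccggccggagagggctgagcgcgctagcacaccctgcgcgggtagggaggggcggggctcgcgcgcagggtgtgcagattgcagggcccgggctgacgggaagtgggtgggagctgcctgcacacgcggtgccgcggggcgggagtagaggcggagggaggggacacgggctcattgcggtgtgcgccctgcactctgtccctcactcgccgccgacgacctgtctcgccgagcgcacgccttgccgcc
The HSPE1 window held neither GAANNTTC nor TTCNNGAA, and neither did the HSPD1 window that overlaps it. The printed HSPD1 window held 1 GAANNTTC and 2 TTCNNGAA elements that overlap in 1 run, which makes 2 overlapping elements of 3 units (either motif extended by another unit after 2 bases). Elements of 3 units were present in 0.490% of all promoter windows.

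HSPE1 stood at 202, 198 and 193 CPM in NC replicates 1 to 3 and at 163, 167 and 149 CPM in ORF-Flag replicates 1 to 3. All 3 ORF-Flag libraries were below all 3 NC libraries, and ORF-Flag replicate 3 was the lowest. HSPE1 thus fell from 197 ± 4.70 CPM (SD, n = 3) in NC cells to 160 ± 9.50 CPM (SD, n = 3) in ORF-Flag cells, with a log2 fold change of -0.31 (SE 0.040, 95% interval -0.39 to -0.22, edgeR adjusted p = 2.61e-05). HSPE1 had the smallest adjusted p of the 10 genes and was called under every alternative, with log2 fold changes between -0.34 and -0.26.

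HSPD1 was at 3023, 3024 and 3103 CPM in the NC libraries and at 2949, 2996 and 2952 CPM in the ORF-Flag libraries. The groups did not overlap here either, but the log2 fold change of -0.041 (95% interval -0.10 to 0.023) did not pass the test (edgeR adjusted p = 0.531). The ratio of HSPE1 to HSPD1 within a library was 0.0668, 0.0654 and 0.0621 in the NC group and 0.0554, 0.0558 and 0.0505 in the ORF-Flag group. The ORF-Flag ratios were all below the NC ratios, and this difference was not tested.

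HSPE1 overlaps other genes, which limits the reading of its counts. Of its 1977 annotated exon bases, 9.71% lie in exons of the read-through gene HSPE1-MOB4 on the same strand and 14.2% lie opposite exons of HSPD1. Of its 351 coding bases, 47.9% lie in exons of HSPE1-MOB4 and 0 in exons of HSPD1. Of all stretches of 100 bases in the HSPE1 transcript, 33.5% were also found, on either strand, in transcripts of 5 other genes, most often HSPD1. HSPE1-MOB4 was listed at 0, 5 and 0 counts in the NC libraries and at 0, 1 and 1 counts in the ORF-Flag libraries. MOB4, with 698 of its 4296 exon bases and 91.1% of its coding bases in exons of HSPE1-MOB4, was listed at 0, 3 and 0 counts in the NC libraries and at 0 in each ORF-Flag library. How reads in shared exons were counted is not given in the sources used here, and whether HSPE1 was also lower over its shared exons was not tested.

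**Figure D3:**
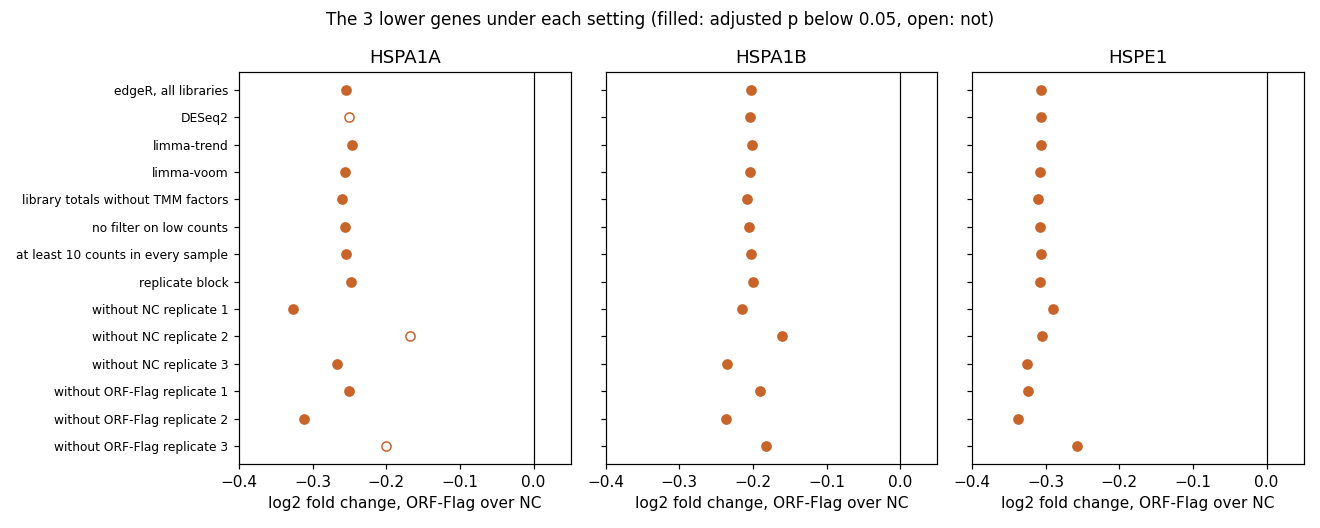
Log2 fold change (ORF-Flag over NC) of HSPA1A, HSPA1B and HSPE1 with all libraries in edgeR and under 13 other settings, filled where the adjusted p was below 0.05. HSPA1B and HSPE1 are filled throughout, and HSPA1A is open with DESeq2, without NC replicate 2 and without ORF-Flag replicate 3.

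To set the levels of the genes side by side, CPM was divided by the length of the union of exons, giving CPM per kb of exon. HSP90AB1 was the most abundant at 1570 on average over the 6 libraries, followed by HSPD1 at 709, HSPA8 at 571 and HSP90AA1 at 551. HSPA8 and HSP90AA1 overlapped over the libraries, whereas HSP90AB1 and HSPD1 stood apart from each other and from the genes below them. After a wide gap came HSPA1A (96.8), HSPE1 (90.4), HSPA1B (86.4) and HSPB1 (82.1), each overlapping the next in the order. HSPA1A, HSPA1B and HSPE1 share long stretches with other genes, and how such reads were counted is not given. Their levels may therefore be understated, and the part of this in the gap and in the ranks was not tested. HSPH1 (54.9) and DNAJB1 (49.4) were the lowest and overlapped each other. The mean level per length thus covered a 31.8-fold range. With the longest transcript as length the first 4 genes kept their ranks and DNAJB1 stayed lowest, while HSPE1 moved from rank 6 to 5 and HSPA1B from rank 7 to 9. The values moved as well, for example to 1225 for HSPD1, 1125 for HSPA8, 188 for HSPE1, 88.7 for HSPH1 and 80.1 for DNAJB1. The order within the lower group therefore depended on the length used, and also on the group: in NC cells it was HSPA1A (105), HSPE1 (99.9), HSPA1B (92.4) and HSPB1 (80.4) per kb of union exon, and in ORF-Flag cells HSPA1A (88.4), HSPB1 (83.9), HSPE1 (80.9) and HSPA1B (80.3).

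**Figure D4:**
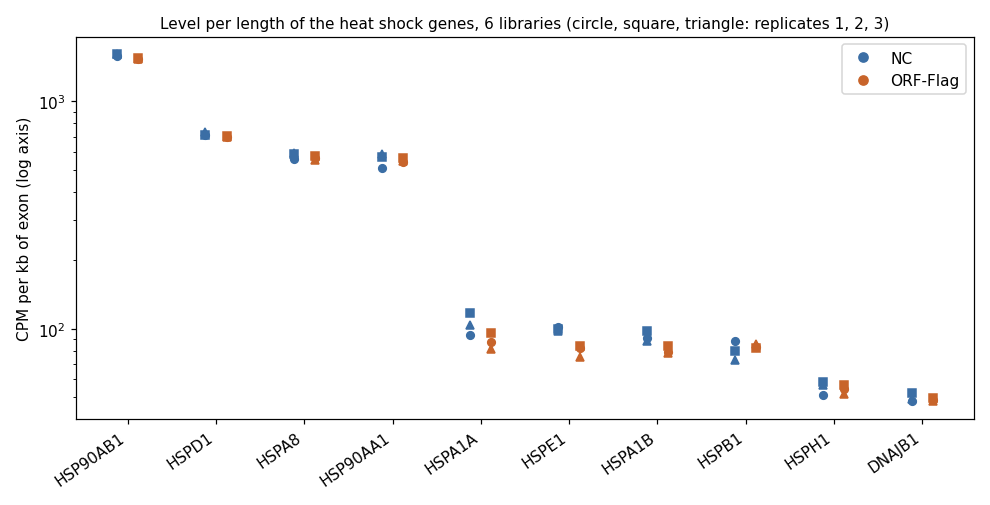
Level per length (CPM per kb of exon, log axis) of the 10 heat shock genes in each NC (blue) and ORF-Flag (orange) library, in order of the mean over the 6 libraries. HSP90AB1, HSPD1, HSPA8 and HSP90AA1 lie between 508 and 1610, and the other 6 genes between 48.0 and 117. The levels of HSPA1A, HSPA1B and HSPE1 may be understated, because they share long stretches with other genes.

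The 10 genes together made up 1.46%, 1.52% and 1.52% of all counts in the NC libraries and 1.44%, 1.47% and 1.43% in the ORF-Flag libraries. These shares overlapped between the groups, since NC replicate 1 lay below ORF-Flag replicate 2. Within the NC group, replicate 1 was the lowest for 7 of the 10 genes, against 37.5% of all genes tested. Within the ORF-Flag group, replicate 2 was the highest for 9 of the 10 genes, against 34.6% of all genes tested. In the same group, replicate 3 was the lowest for 7 of the 10 genes, against 33.1% of all genes tested. ORF-Flag replicate 2 was also the library with the fewest counts, and the part of depth in this pattern was not tested.

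The pattern over the 6 libraries, taken as the mean of the standardized log2 CPM of the 10 genes, was highest in NC replicate 2 (0.96) and lowest in ORF-Flag replicate 3 (-0.87). HSPA1A followed it most closely (Pearson r = 0.991 over 6 libraries), HSP90AA1 least closely among those with a positive r (0.547), and HSPB1 ran opposite to it (-0.645). Among 12272 tested genes outside the 10 and outside the chaperone lists described next, the most alike were YARS2, a mitochondrial tyrosyl-tRNA synthetase (r = 0.993), PPP2R5B, a regulatory subunit of the phosphatase PP2A (0.988), MPHOSPH10, a component of the U3 small nucleolar ribonucleoprotein (0.987), RHOBTB3 (0.984) and LARS1, the cytosolic leucyl-tRNA synthetase (0.980). None of these 5 genes was called (edgeR adjusted p from 0.112 to 0.381), and with 6 libraries such values of r describe these samples only.

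To place the 10 genes among their partners, lists of related genes were read from the same fit. HSF1, the main activator of heat shock genes, was at 46.5, 43.2 and 40.9 CPM in the NC libraries and at 40.5, 39.5 and 39.8 CPM in the ORF-Flag libraries. These groups did not overlap, but HSF1 did not pass the test (log2 fold change -0.12, edgeR adjusted p = 0.239). Without NC replicate 1, the highest library, the log2 fold change of HSF1 was -0.071 (adjusted p = 0.577). HSBP1, which binds HSF1 and counters its trimer, had a log2 fold change of 0.045 (edgeR adjusted p = 0.608). The value of HSBP1 ranged from 0.020 without NC replicate 2 to 0.085 without NC replicate 3. In the list of HSF genes and HSF1 regulators, edgeR called 0 of 5 tested genes, and DESeq2, limma-trend and limma-voom called 0 as well. At an unadjusted p below 0.05 stood 3 of these 5 genes, beside 18.5% of all genes tested (2293 of 12386), a share against which the counts at an unadjusted p in the other lists are to be read. These 3 genes did not share a direction: HSF1 was lower, and the log2 fold changes of the others were -0.36 and 0.63. Those others were at 3.21 CPM or less in every library.

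The lists of other cytosolic relatives and partners of HSP70 gave no call. Of 6 tested cytosolic HSP70 and HSP110 genes beyond the 10, edgeR called 0, with 0 at an unadjusted p below 0.05, and the log2 fold changes of HSPA4 and HSPA4L were -0.029 and 0.059. That of HSPA4L ranged from -0.0026 without NC replicate 1 to 0.11 without NC replicate 3. HSPA6, an HSP70 gene that is nearly silent without stress and is named here after its values were seen, had 2, 4 and 2 counts in the NC libraries and 3, 6 and 2 counts in the ORF-Flag libraries and did not pass the filter on low counts. Of 12 tested cytosolic J-domain genes, edgeR called 0, with 1 at an unadjusted p below 0.05, and the abundant DNAJA1 and DNAJA2 had log2 fold changes of 0.048 and -0.027. The value of DNAJA1 ranged from 1.26e-05 without NC replicate 1 to 0.087 without ORF-Flag replicate 3. Of 10 tested exchange factors and adaptors, edgeR called 0, with 2 at an unadjusted p below 0.05. STIP1, which links HSP70 with HSP90, had a log2 fold change of 0.035, and ST13, which stabilizes the HSP70 complex with its substrate, had -0.026. The value of ST13 ranged from -0.045 without ORF-Flag replicate 1 to -0.012 without ORF-Flag replicate 3. DESeq2, limma-trend and limma-voom also called 0 genes in these 3 lists.

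Among 17 tested HSP90 co-chaperones, 1 was called, FKBP4 (FKBP52), the immunophilin of steroid receptor complexes. FKBP4 was at 156, 163 and 157 CPM in the NC libraries and at 145, 143 and 136 CPM in the ORF-Flag libraries, without overlap. It fell by 0.17 on the log2 scale (SE 0.037, edgeR adjusted p = 0.00856), but not past the threshold without NC replicate 2 (-0.15, adjusted p = 0.0668) or without ORF-Flag replicate 3 (-0.14, adjusted p = 0.104). The median log2 fold change of the HSP90 co-chaperones was -0.051, with 12 of 17 below 0.

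Among 3 tested small heat shock genes of the list, CRYAA (alpha-A crystallin, a lens chaperone) was called higher. It was at 3.61, 6.05 and 2.71 CPM in the NC libraries and at 21.6, 22.5 and 3.19 CPM in the ORF-Flag libraries. ORF-Flag replicate 3 thus lay within the NC range, so that the rise was seen in 2 of 3 ORF-Flag libraries. The log2 fold change was 1.91 (SE 0.39, edgeR adjusted p = 0.00537), and the call was lost with DESeq2 at a similar log2 fold change (1.93, adjusted p = 0.200) and with limma-voom (1.47, adjusted p = 0.161).

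Of the 14 tested genes of the cytosolic chaperonin TRiC and prefoldin, TCP1, the TRiC subunit that gave the complex its name, was called lower. It was at 648, 639 and 629 CPM in the NC libraries and at 595, 587 and 597 CPM in the ORF-Flag libraries, without overlap (log2 fold change -0.11, edgeR adjusted p = 0.0470). This call was close to the threshold, and 1 of 6 fits with a library left out kept it, with log2 fold changes between -0.12 and -0.096 (adjusted p up to 0.193). In the list of genes that respond to HSF1, which also holds DNAJB1 of the 10 genes and shares genes with the lists above, the co-chaperone FKBP4 was the 1 gene called of 15 tested, and the median log2 fold change was 0.0031.

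The mitochondrial partners of HSPD1 and HSPE1 gave no call. Of 17 tested mitochondrial chaperones and proteases, edgeR called 0, with 1 at an unadjusted p below 0.05, and DESeq2, limma-trend and limma-voom called 0. HSPA9 (mortalin), the matrix HSP70, was at 669, 665 and 690 CPM in the NC libraries and at 649, 647 and 658 CPM in the ORF-Flag libraries, without overlap (log2 fold change -0.051, edgeR adjusted p = 0.414). YME1L1, a protease of the inner membrane, had a log2 fold change of 0.044. The value of YME1L1 ranged from 0.025 without NC replicate 1 to 0.062 without ORF-Flag replicate 1. The median of this list was 0.0055, beside -0.31 for HSPE1 and -0.041 for HSPD1.

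Taking all these lists without the 10 genes, 3.33% of 90 tested genes were called (1 higher and 2 lower), beside 4.45% of all genes tested. Chaperones of the endoplasmic reticulum were read for comparison, and edgeR called 1 of 14, CRELD2 (log2 fold change -0.19, edgeR adjusted p = 0.00937). CRELD2 fell from 85.3 ± 3.60 CPM to 74.5 ± 1.77 CPM (SD, n = 3 each), but did not pass without ORF-Flag replicate 3 (-0.18, adjusted p = 0.0776). DESeq2, limma-trend and limma-voom each called 2 of these 14 genes. The 3 ORF-Flag libraries all lay below the 3 NC libraries for 5 of the 14, and all above them for 2. Lying all below was seen for 4 of the 10 heat shock genes and 10.9% of all genes tested, and all above for 0 of 10 and 1427 of 12386. At an unadjusted p below 0.05 stood 4 of the 14 and 3 of the 10, beside 18.5% of all genes tested.

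**Figure D5:**
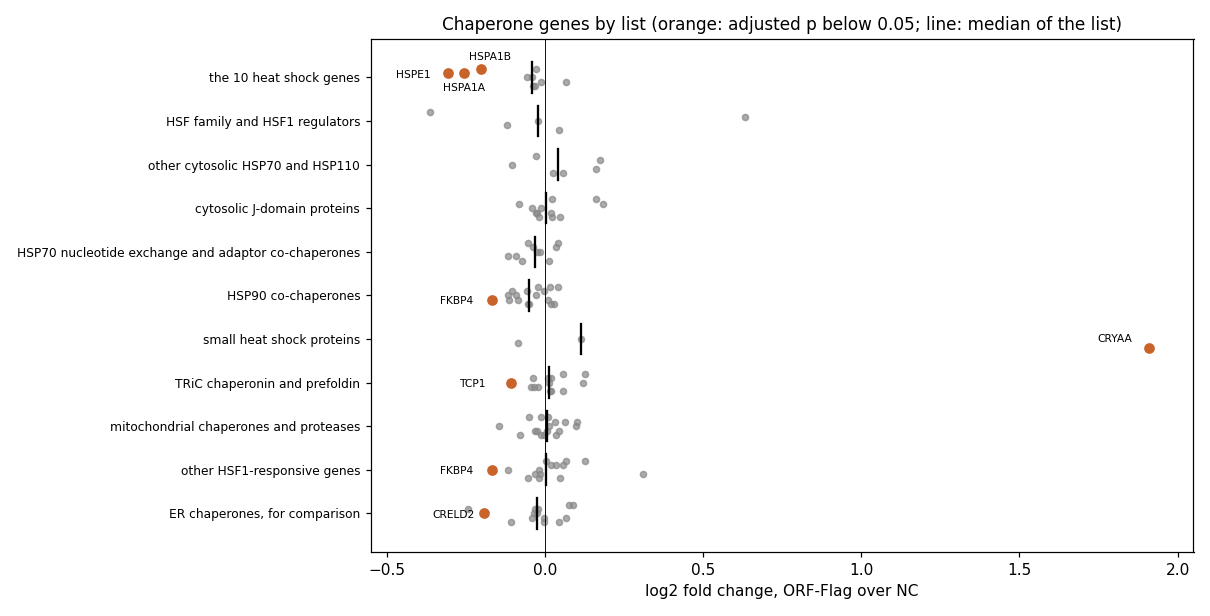
Log2 fold change (ORF-Flag over NC) of every tested gene in the 10 heat shock genes and in each list, with called genes in orange and named, and a black line at the median of the list. Apart from CRYAA at 1.91, the called genes lie between -0.31 (HSPE1) and -0.11 (TCP1).

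In the promoter windows, 8 of the 10 heat shock genes held GAANNTTC or TTCNNGAA in at least 1 of their windows (16 windows in all), against 16.2% of 27305 genes. Elements of 3 units were found for 4 of the 10 genes (HSPD1, HSP90AB1, HSPA8 and HSP90AA1), against 0.608% of all genes. The genes without either motif were HSPE1 and HSPH1. Of the 3 genes that were lower in ORF-Flag cells, HSPA1A and HSPA1B held 1 element of 2 units each and HSPE1 none in its window. The elements of the printed HSPD1 window lie just beyond the edge of the HSPE1 window, inside the annotated span of HSPE1, so this count depends on where the windows end.

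Marker genes were read to check the labelled cell line, and TTR and LYZ were exceptions to what their lists name. All 10 hepatocyte and HepG2 markers were detected, with APOB (7311 to 8152 CPM) and ALB (6714 to 7586 CPM) the highest and TTR (5.63 to 6.66 CPM) the lowest, and AFP lay between 713 and 755 CPM. Their summed level was 28412, 28999 and 29358 CPM in the NC libraries and 29525, 29100 and 29151 CPM in the ORF-Flag libraries. Of these 10 markers, FGB alone was called (log2 fold change 0.14, edgeR adjusted p = 0.0232). KDR, TEK, PTPRC, CD3E and DCN had 0 counts in every library, where 3 counts correspond to 0.0997 to 0.171 CPM. Of the leukocyte markers, LYZ was abundant and higher in ORF-Flag cells (1255 to 1401 CPM against 1488 to 1591 CPM, edgeR adjusted p = 0.0112), while the defining leukocyte genes PTPRC and CD3E were at 0. The summed leukocyte list, nearly all LYZ, was 1260, 1407 and 1401 CPM in the NC libraries and 1495, 1598 and 1493 CPM in the ORF-Flag libraries. The summed fibroblast markers stayed between 0.632 and 1.04 CPM, with overlap between the groups. The summed endothelial markers, nearly all PECAM1, were at 4.75, 4.16 and 5.01 CPM in the NC libraries and at 6.56, 5.51 and 6.26 CPM in the ORF-Flag libraries, without overlap, and PECAM1 did not pass the test (log2 fold change 0.39, edgeR adjusted p = 0.0958). VWF was at 0.200 to 0.484 CPM, CDH5 at 0 to 0.0400 CPM, and KDR and TEK at 0. The part of these marker levels in the results on the heat shock genes was not tested.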

How the data were processed

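The data were RNA-Seq libraries of HepG2 cells, 3 NC and 3 ORF-Flag, grouped by the sample labels. Values are whole-number read counts for each Ensembl gene, made by the authors and used as deposited. The submitters' processing notes name cutadapt 1.11, HISAT2 2.1.0, featureCounts 1.6.0, edgeR and GRCh38 without roles or order. The annotation release, the strand setting and the treatment of reads with several matches are not given in the sources used here, so near-identical, overlapping and antisense genes are uncertain. Symbols were matched for 20421 of 20422 identifiers, and 4055 genes were at 0 in every library. Pairs of libraries of a group differed by more than sampling noise (chi-square per degree of freedom 2.39 to 5.23 over genes with at least 20 counts).

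Groups were compared with edgeR 4.0.16 (R 4.3.3) by filterByExpr, TMM factors, glmQLFit, glmQLFTest and Benjamini-Hochberg adjustment over all 12386 genes tested, two-sided. Standard errors were derived from the F statistic, and intervals are at 95%. Floors of 3 counts cover counting error only. Alternatives were DESeq2 1.42.0, limma-trend (prior count 2) and limma-voom in limma 3.58.1, library totals without TMM, the replicate block, no filter, a minimum of 10 counts in every sample, each library left out, HSPA1A and HSPA1B summed, and the longest transcript as length. Summing HSPE1 with HSPE1-MOB4 was chosen after seeing the data, and so were the ratios between genes. The tests were run on simulated data first. Lengths and overlaps came from GENCODE v29 and promoter windows from RefSeq (GRCh38.p14), aligned with Biopython 1.88. Figures were drawn with matplotlib 3.10.9.

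The members and lists were chosen with earlier results of these data known. Named genes were the 10 members, of each list the genes with an adjusted p below 0.05 (up to 4) or otherwise the 2 of highest mean level, and the 5 genes most like the members' pattern. HSPE1-MOB4, MOB4 and HSPA6 are outside this rule. A gene of the lists is not reported here, and the counts and medians of the lists leave it out.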

Additional observations from a re-analysis of the deposited data

How the results depend on the processing

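The count of genes called ranged from 199 to 1058 when 1 library was left out, against 551 with all libraries, and the other settings gave from 431 (DESeq2) to 824 (no filter on low counts). With the replicate block, 731 genes and 3 heat shock genes were called, and the median log2 fold change of the heat shock genes was -0.039. No call changed with this block among the 24 named genes followed through the alternatives. The genes most like the members' pattern were not among these 24. The labels give both groups the same replicate numbers, but the correlation of same-numbered libraries' deviations was between 0.027 and 0.067, under the 0.1 that would pair them, so the numbers were not used to pair the samples. Still, 5 of 6 libraries correlated best with their own number, a hint from the data and not from the design. Between 2 and 4 heat shock genes were called with a library left out, and their median log2 fold change was between -0.068 and -0.031. Of 315 values of 24 named genes under the alternatives, 301 stayed on their side of the threshold, 13 lost a call and 1 gained one. Summing HSPE1 with HSPE1-MOB4, chosen after seeing the data, gave -0.31 (edgeR adjusted p = 2.60e-05). HSPE1-MOB4 had at most 5 counts in a library and HSPE1 at least 2909, so this sum could hardly move the value and tests little. The cause of the dependence on single libraries was not tested. With 3 libraries a group, differences as small as those of HSP90AB1 and HSPD1 were not called although the groups did not overlap, and genes at the depth of HSPA6 (2 to 6 counts) did not pass the filter on low counts.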
